A study of Arabidopsis thaliana with 15 samples.

Results

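The genes described here carry nitrate and ammonium into the Arabidopsis root and reduce nitrate to ammonium. They were chosen by locus, as 10 genes of known function: 7 membrane transport genes (NRT1.1, NRT2.1, NRT2.2, NAR2.1, AMT1;1, AMT1;2 and AMT1;3) and 3 reductase genes (NIA1, NIA2 and NIR1). The choice was made with earlier results of these data known, so the counts set beside all genes below are descriptive only. Of these, 9 are among the 14391 genes of the deposited count table, and the same 9 passed the filter on low counts that left 9891 genes for testing. NRT2.2 (AT1G08100), a close copy of NRT2.1, was not analysed here. That left 6 transport genes and 3 reductase genes.

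Root cells take up nitrate through NRT1.1 and the NRT2 transporters and ammonium through the AMT1 transporters. Nitrate reductase, encoded by NIA1 and NIA2, converts nitrate to nitrite in the cytosol, and nitrite reductase, encoded by NIR1, converts nitrite to ammonium in the plastid. Nitrite is toxic when it builds up, and in roots supplied with nitrate the transcripts of NRT1.1, NRT2.1, both NIA genes and NIR1 are known to be induced together.

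Wild-type Arabidopsis thaliana seedlings of ecotype Columbia-0, 7 days old, had been grown on Murashige and Skoog medium with sucrose, under 16 h of light and 8 h of dark at 21 °C. They were then placed in aqueous solution, and RNA was taken from the roots of 30 to 50 seedlings per biological replicate. The groups were RBH for 2 h, labelled 5 mM H2O2 with 10 µM MRB (the meaning of MRB: not given in the sources used here), 10 µM Rose Bengal (RB) for 1 h, 2 h and 3 h, and water for 1 h. Each of the 5 groups held 3 libraries, named a, b and c. RB is a dye that makes singlet oxygen when lit, and hydrogen peroxide (H2O2) is another reactive oxygen species. The sources used here give neither the light during treatment nor any nitrogen in the solution. The titles of the water libraries read 0, whereas their treatment label reads 1 h. Against water, the effects of the agent and of a longer stay in solution cannot be told apart at the later times. If the titles give the true time, the same holds at 1 h. Roots in H2O2 alone were not analysed here.

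The libraries held between 897728 and 6230975 counts. Levels are given in CPM, which scale the counts of each library to the same total. In these units 1 count was worth 0.176 to 1.19 CPM and a floor of 3 counts in 1 library lay between 0.528 and 3.58 CPM. RB 1 h library b and RB 2 h library a stood apart on the third principal component, at -30.2 and -46.8, against -12.1 to 19.0 for the other libraries. Markers of photosynthetic shoot tissue (16 genes) held 0.0267% to 0.0948% of the counts in each library. Of 12 markers of root hairs, endodermis and mature root, 11 were in the table, each with counts in every group. Their summed level was 1427 to 2437 CPM in RBH, and over the RB series 4285 to 5014 CPM in water, 2627 to 3590 CPM at 1 h, 1270 to 1646 CPM at 2 h and 767 to 1022 CPM at 3 h. Of the 10 of these markers that were tested, 6 fell in RBH against water (12.6% of all tested genes fell), and 1, 6 and 7 fell in RB 1 h, 2 h and 3 h (2.32%, 12.2% and 16.6% of all tested genes), while 1 rose in RB 2 h. The part of these markers in the results below was not tested, and in root RNA fewer cells of a type and less RNA per cell cannot be told apart.

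Against water, most of the transport genes fell in every treated group, both nitrate reductase genes rose, and the nitrite reductase gene fell. In RBH 2 h, 8 of the 9 genes were called, against 27% of all tested genes, where a call is an adjusted p under 0.05 in edgeR's two-sided quasi-likelihood test with Benjamini-Hochberg adjustment over all 9891 genes. Over the RB series, 7 of 9 were called at 1 h, where 5.39% of all genes were, 8 of 9 at 2 h, against 24.8%, and 8 of 9 at 3 h, against 32.7%. Higher calls made up 14.4% of all genes in RBH and 3.07%, 12.6% and 16.2% along the RB series, and lower calls 12.6% in RBH and 2.32%, 12.2% and 16.6% along the series. The ranges of the 3 treated and 3 water libraries did not overlap for 8 of 9 genes in RBH, against 42.9% of all genes, and for 9 at RB 1 h (24%), 8 at 2 h (37.4%) and 9 at 3 h (50.9%). Without the 2 libraries that stood apart, the count of called genes was 8 of 9 in each of these 4 comparisons. Of all 10382 genes then tested, 3044 were called in RBH and 1104, 2869 and 3690 at RB 1 h, 2 h and 3 h. With 1 library left out the count at RB 1 h was 4 to 6, while 296 to 765 of all tested genes were called. The count of 4 was reached without water library c, where 296 of 10229 tested genes were called.

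Most transport genes and the 2 nitrate reductase genes moved apart, while the nitrite reductase gene fell. In each of RBH 2 h, RB 2 h and RB 3 h, 5 of 6 transport genes fell against water, and at RB 1 h 4 of 6 fell. In each of these 4 comparisons 2 of the 3 reductase genes rose and 1 fell. The median log2 fold change of the 6 transport genes against water was -2.20 in RBH, and -1.47, -1.88 and -2.03 at RB 1 h, 2 h and 3 h. For the 3 reductase genes it was 2.05 in RBH, and 0.66, 2.06 and 2.12 at RB 1 h, 2 h and 3 h. Each of these medians is the value of NIA2, with NIA1 above it and NIR1, which fell, below it. Over all tested genes the median lay between 0.01 and 0.04 in these comparisons.

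Summed within each library, the 6 transport genes gave 0.170, 0.317 and 0.159 reads per reductase read in the RBH libraries. Over the RB series this ratio was 1.64, 1.57 and 1.58 in water, 0.647, 0.623 and 0.684 at 1 h, 0.143, 0.230 and 0.197 at 2 h, and 0.144, 0.164 and 0.142 at 3 h. Every treated library thus lay below every water library, and the 1 h libraries lay between water and the later times. The transport genes summed to 297 ± 130 CPM in RBH (SD, n = 3, here and for each mean below), and over the series to 892 ± 51.6 CPM in water, 375 ± 41.9 at 1 h, 296 ± 62.2 at 2 h and 277 ± 29.6 at 3 h. The reductase genes summed to 1371 ± 35.9 CPM in RBH, and over the series to 558 ± 23.4 CPM in water, 575 ± 42.8 at 1 h, 1563 ± 57.2 at 2 h and 1850 ± 149 at 3 h. At 1 h the transport sum was thus already below all water libraries, while the reductase sum overlapped that of water.

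**Figure D1:**
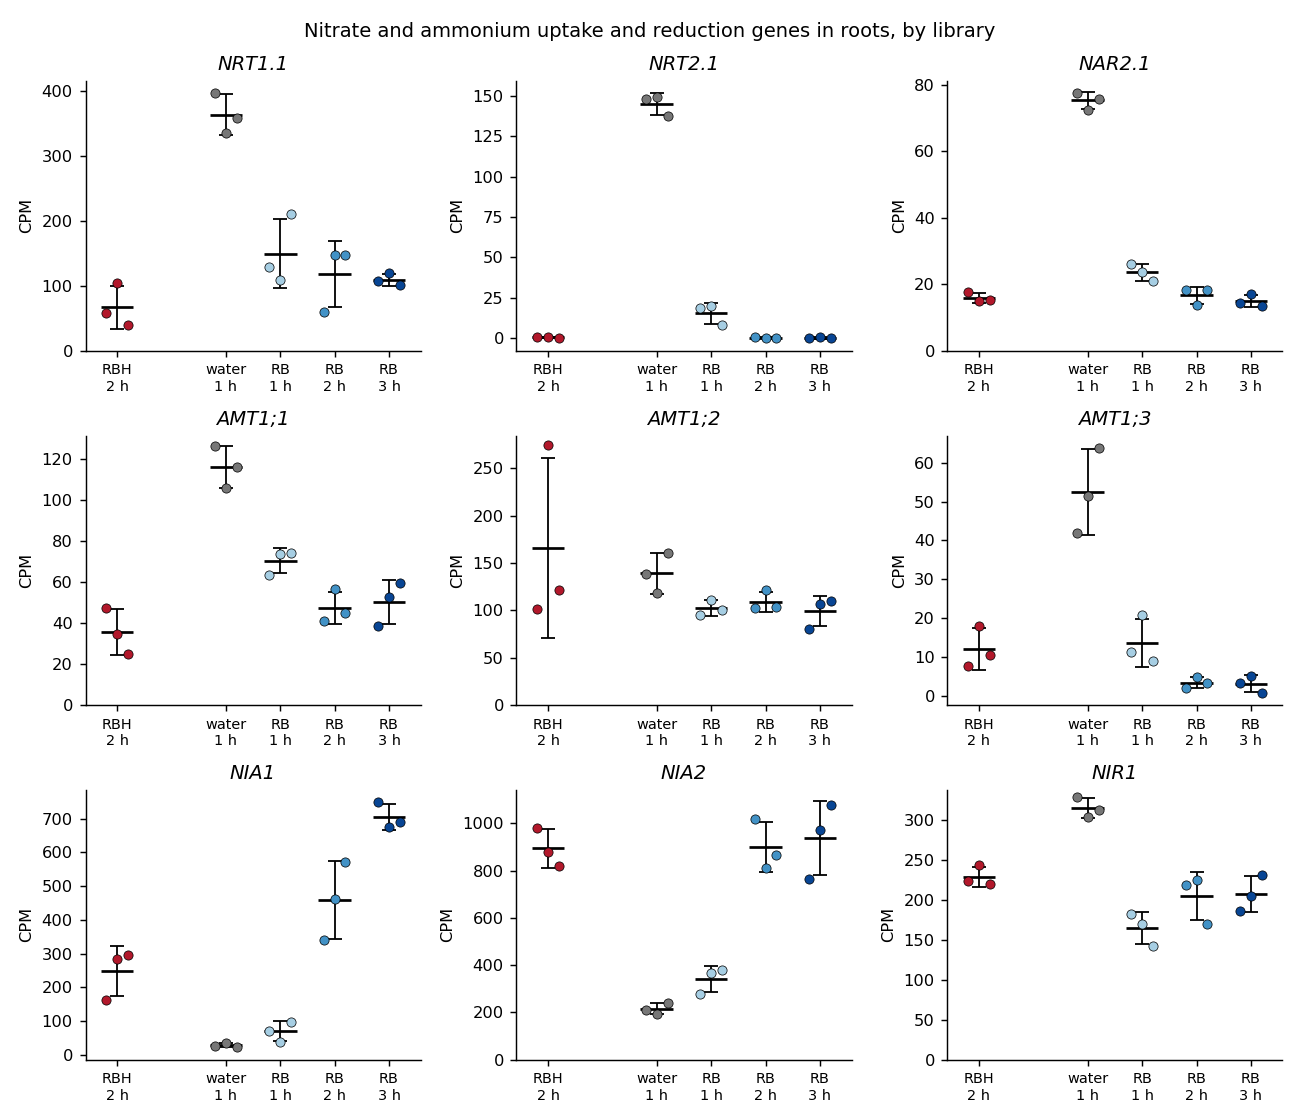
Level of each of the 9 genes, in CPM (linear axis that includes 0), in each library (points) with the mean (bar) and SD (whiskers) of each group of 3; RBH 2 h stands left of the series from water through RB 1, 2 and 3 h. NRT2.1 is near 0 in every library of RBH 2 h, RB 2 h and RB 3 h. NIA1 climbs along the series, whereas NIA2 climbs up to RB 2 h and overlaps between RB 2 h and RB 3 h. AMT1;2 has 1 RBH library, at 274 CPM, far above the others.

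NRT2.1 (AT1G08090) encodes the main high-affinity nitrate transporter of the root. It had 0.767, 0.646 and 0.176 CPM in the RBH libraries, which is 1 count in each. Over the RB series it had 148, 149 and 137 CPM in water (565 counts in all), 18.9, 19.7 and 7.98 CPM at 1 h, 1.01, 0 and 0.404 CPM at 2 h (2 counts in all) and 0.213, 1.01 and 0 CPM at 3 h (3 counts in all). No treated library reached the lowest water library, and the 2 h, 3 h and RBH libraries all lay below the 1 h libraries.

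At 1 h the log2 fold change of NRT2.1 against water was -3.23 (SE 0.30, edgeR adjusted p = 1.99e-07). In the later groups the level was at the counting limit, so the fold is given as a ratio of counts with its 95% exact counting interval. Water exceeded RBH 2 h by 409-fold (139 to 1988), RB 2 h by 397-fold (109 to 3283) and RB 3 h by 387-fold (132 to 1881), with edgeR adjusted p values of 3.51e-12, 1.64e-11 and 4.17e-12 in that order. Such intervals cover counting error only, and these 3 ratios are not distinguishable from each other at this depth. NRT2.1 held 0.330%, 0.145% and 0.0830% of the reads of the 6 transport genes in the RBH libraries, against 15.9%, 17.9% and 15.1% in the water libraries. NRT2.1 and NRT2.2 are close in sequence, and the sources used here do not say how reads that match both were counted.

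NAR2.1 (AT5G50200, also NRT3.1) encodes the partner protein that NRT2.1 needs for transport. It had 17.6, 14.9 and 15.3 CPM in RBH. Its series ran through 77.6, 72.5 and 75.8 CPM in water, 26.1, 23.6 and 21.0 CPM at 1 h, 18.1, 13.6 and 18.2 CPM at 2 h and 14.3, 17.1 and 13.6 CPM at 3 h. Replicates were close together, and the treated groups lay far below water. Against water the fitted change was -2.25 on the log2 scale in RBH (SE 0.22, edgeR adjusted p = 2.55e-08), and -1.67, -2.18 and -2.32 at RB 1 h, 2 h and 3 h (SE 0.21 to 0.22). So the partner gene kept a measurable level of 13.6 to 18.2 CPM in the groups where NRT2.1 fell to at most 1.01 CPM.

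NRT1.1 (AT1G12110, also NPF6.3 or CHL1) encodes a dual-affinity nitrate transporter that also senses nitrate. Its RBH libraries had 57.5, 104 and 39.6 CPM. In water it had 397, 335 and 358 CPM, followed by 129, 109 and 210 CPM at 1 h, 60.5, 148 and 147 CPM at 2 h and 108, 119 and 101 CPM at 3 h. All treated libraries were below all water libraries, but replicates of RBH, RB 1 h and RB 2 h spread widely. Both libraries that stood apart, RB 1 h b and RB 2 h a, were the lowest of their groups.

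The log2 fold change of NRT1.1 against water was -2.47 in RBH (SE 0.35, edgeR adjusted p = 3.05e-05) and -1.59 and -1.73 at RB 2 h and 3 h (adjusted p = 0.00188 and 0.000654). At RB 1 h it was -1.27 (SE 0.33, edgeR adjusted p = 0.0311). That call at 1 h was lost in 7 of 14 alternative settings, among them leaving out any 1 water library, with log2 fold changes from -1.59 to -1.07 and an adjusted p of up to 0.144.

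The 3 AMT1 genes encode ammonium transporters of the root: AMT1;1 and AMT1;3 act mainly in the outer cell layers and root hairs, and AMT1;2 in the cortex and endodermis. They did not move alike. AMT1;3 (AT3G24300) had 7.67, 18.1 and 10.4 CPM in RBH, and over the series 41.8, 51.5 and 63.8 CPM in water, 11.4, 20.7 and 8.98 CPM at 1 h, 2.02, 4.87 and 3.24 CPM at 2 h and 3.41, 5.04 and 0.716 CPM at 3 h. Every treated library was below water, the 2 h and 3 h libraries lay below those at 1 h, and the RBH libraries overlapped those at RB 1 h. Its log2 fold change against water was -2.15 in RBH (SE 0.35, edgeR adjusted p = 4.64e-05), and -2.04, -3.86 and -3.99 at RB 1 h, 2 h and 3 h (SE 0.36, 0.42 and 0.41). At 2 h and 3 h the whole group held 20 and 27 counts.

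AMT1;1 (AT4G13510) had 47.5, 34.9 and 25.2 CPM in RBH, and in the RB series 127, 106 and 116 CPM in water, 63.5, 73.9 and 74.3 CPM at 1 h, 41.3, 56.5 and 44.9 CPM at 2 h and 38.6, 52.9 and 59.5 CPM at 3 h. No treated library reached the lowest water library. Its log2 fold change against water was -1.75 in RBH (SE 0.23, edgeR adjusted p = 2.51e-06) and -1.27 and -1.23 at RB 2 h and 3 h. At RB 1 h it was -0.72 (SE 0.22, edgeR adjusted p = 0.0567), just outside the threshold. It passed in 3 of 14 alternatives, among them DESeq2 as run here (adjusted p = 0.0345), and the other alternatives reached 0.240. The authors' deposited DESeq2 adjusted p was 0.0555, without a mark.

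AMT1;2 (AT1G64780) passed the test in none of the 8 comparisons with all libraries fitted together. It had 101, 274 and 122 CPM in RBH, and over the series 138, 118 and 161 CPM in water, 95.2, 111 and 101 CPM at 1 h, 103, 121 and 104 CPM at 2 h and 80.8, 107 and 110 CPM at 3 h. Library b of RBH stood far above the other libraries, while the RB 1 h and 3 h libraries lay below those of water. The log2 fold change against water was 0.24 in RBH (SE 0.26, edgeR adjusted p = 0.545), and -0.45, -0.35 and -0.50 at RB 1 h, 2 h and 3 h (adjusted p = 0.369, 0.375 and 0.160). Over the alternatives, the value in RBH ranged from -0.33 to 0.50, and that at RB 3 h passed with only the 2 groups fitted (-0.45, adjusted p = 0.0391).

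Within a library, AMT1;2 reads were 64.7%, 83.8% and 77.4% of the reads of the 3 AMT1 genes in RBH. Over the series the share was 45.1%, 42.8% and 47.2% in water, 56.0%, 54.1% and 54.7% at 1 h, 70.3%, 66.4% and 68.3% at 2 h and 65.8%, 64.9% and 64.6% at 3 h. The share was higher in every treated library than in every water library. An exact two-sided permutation test of each treated group against water gave p = 0.1, the smallest p that 3 against 3 libraries allow. This share sets genes read at their 3′ ends beside each other, so it compares groups and not the abundance of 1 transporter with another.

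NIA1 (AT1G77760) encodes the minor of the 2 nitrate reductase isoforms. It had 162, 285 and 296 CPM in RBH. Over the series it had 27.4, 34.4 and 22.2 CPM in water, 71.9, 39.4 and 97.8 CPM at 1 h, 341, 462 and 572 CPM at 2 h and 749, 674 and 691 CPM at 3 h. No treated library came down to the highest water library, and the lowest library at 1 h was b, which stood apart. Along the series each group lay wholly above the one before it.

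The log2 fold change of NIA1 against water was 3.16 in RBH (SE 0.31, edgeR adjusted p = 4.13e-08), and 1.35, 4.04 and 4.66 at RB 1 h, 2 h and 3 h (SE 0.31, 0.31 and 0.32, adjusted p = 0.00856, 2.25e-09 and 1.98e-10). These correspond to 8.93-fold in RBH and to 2.55-fold, 16.5-fold and 25.3-fold along the RB series. The call at 1 h was lost without RB 1 h library c (adjusted p = 0.0710) and without water library c (adjusted p = 0.0825).

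NIA2 (AT1G37130) encodes the isoform that gives most nitrate reductase activity in seedlings. It had 982, 880 and 821 CPM in RBH. In the RB series NIA2 had 211, 194 and 241 CPM in water, 279, 365 and 378 CPM at 1 h, 1019, 812 and 868 CPM at 2 h and 766, 973 and 1076 CPM at 3 h. The 1 h libraries lay between water and the later groups, and those at 2 h, at 3 h and in RBH overlapped. The log2 fold change against water was 2.05 in RBH (SE 0.18, edgeR adjusted p = 6.70e-09), and 0.66, 2.06 and 2.12 at RB 1 h, 2 h and 3 h (SE 0.18 to 0.19). At 1 h the adjusted p was 0.0332, and 5 of 14 alternatives lost the call, with an adjusted p of up to 0.136.

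NIR1 (AT2G15620), the only nitrite reductase gene among the 10, went the other way from both NIA genes. It had 224, 243 and 219 CPM in RBH. The series gave 328, 303 and 313 CPM in water, 182, 170 and 143 CPM at 1 h, 219, 225 and 170 CPM at 2 h and 186, 205 and 231 CPM at 3 h. Every treated library was below every water library. Against water NIR1 had a log2 fold change of -0.46 in RBH (SE 0.17, edgeR adjusted p = 0.0466), and -0.93, -0.62 and -0.60 at RB 1 h, 2 h and 3 h (SE 0.17 each, adjusted p = 0.00114, 0.00915 and 0.00791). The call in RBH was lost in 8 of 14 alternatives, among them leaving out any 1 library of either group. The call at 2 h was lost without RB 2 h library c (adjusted p = 0.0679), and that at 3 h without RB 3 h library a (adjusted p = 0.0535).

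**Figure D2:**
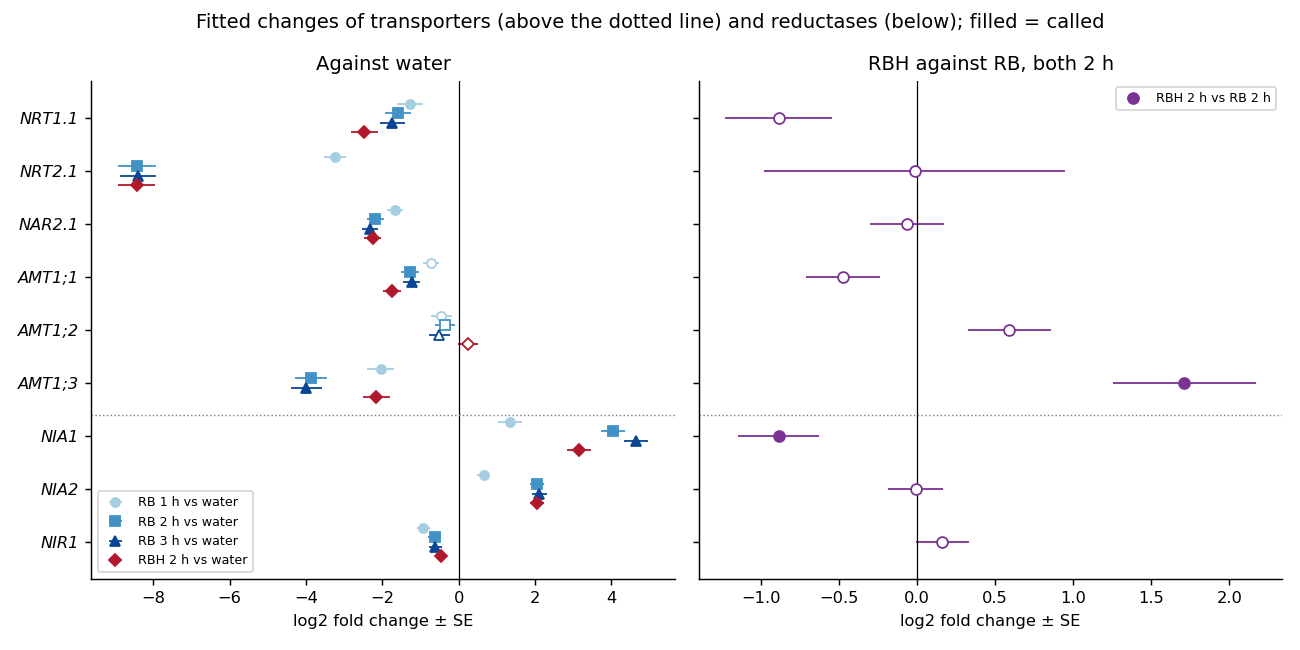
Log2 fold change (points, with SE as whiskers) of each gene against water in 4 treated groups (left) and in RBH 2 h against RB 2 h (right), with transport genes above the dotted line and reductase genes below it; filled points passed the test. NRT2.1 at RB 2 h, RB 3 h and RBH rests on 2 or 3 counts a group, so its fitted position there is not a measured fold; NIA1 and NIA2 lie right of 0 and NIR1 left of it in all 4 comparisons with water.

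The ratio of nitrate reductase to nitrite reductase reads does not depend on library scaling. In RBH it was 5.11, 4.78 and 5.09 NIA reads (NIA1 plus NIA2) per NIR1 read. Over the series it was 0.727, 0.754 and 0.842 in water, 1.92, 2.38 and 3.33 at 1 h, 6.22, 5.65 and 8.46 at 2 h and 8.13, 8.05 and 7.63 at 3 h. Water was the only group below 1, no treated library overlapped water, and the RBH libraries lay below all libraries of RB 2 h. Each of these differences has p = 0.1 in an exact two-sided permutation test, the smallest possible for 3 against 3.

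The balance between the 2 nitrate reductase genes also varied between groups. NIA1 gave 14.1% (95% Clopper-Pearson interval 12.4% to 16.0%), 24.5% (22.5% to 26.5%) and 26.5% (25.5% to 27.6%) of the NIA reads in the RBH libraries. In water it gave 23 of 200, 46 of 306 and 39 of 462 NIA reads, and the share was then 20.5%, 9.73% and 20.6% at 1 h, 25.1%, 36.2% and 39.7% at 2 h and 49.4%, 40.9% and 39.1% at 3 h. The shares at 2 h and 3 h lay above those of water (exact permutation p = 0.1 for each, the smallest possible), while those at 1 h and in RBH overlapped water (exact p = 0.3 and 0.2). In each treated group the counting intervals of the lowest and the highest library did not overlap, whereas those of the water libraries did. Reads shared by the 2 similar genes could move between them.

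**Figure D3:**
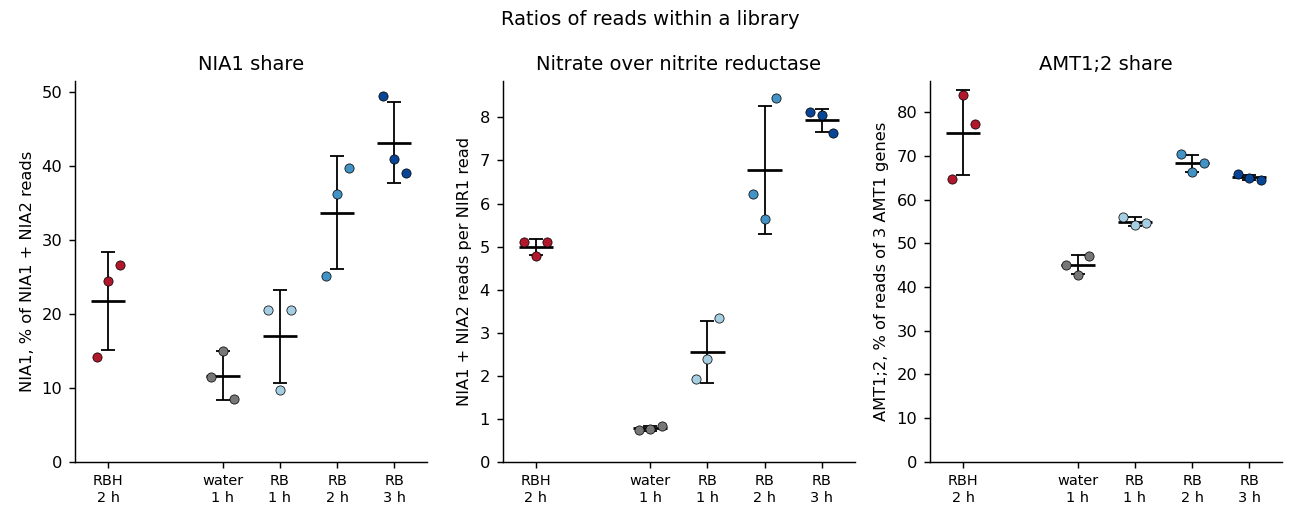
Ratios of reads inside each library (points, with group mean and SD of 3): NIA1 as a percentage of NIA1 plus NIA2 reads (left), NIA1 plus NIA2 reads per NIR1 read (middle) and AMT1;2 as a percentage of AMT1;1, AMT1;2 and AMT1;3 reads (right). Water is the lowest group in the middle panel, at 0.727 to 0.842, and in the right panel, at 42.8% to 47.2%.

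Within the RB series, calls were made against 1 h and not between the later times. Between 2 h and 1 h, 4 of the 9 genes were called, against 9.79% of all genes (5.63% higher, 4.16% lower), and the ranges of 6 did not overlap, against 23.7%. NIA1 rose (log2 fold change 2.69, SE 0.28, edgeR adjusted p = 8.23e-07), as did NIA2 (1.40, SE 0.18, adjusted p = 7.53e-06), whereas AMT1;3 fell (-1.82, SE 0.46, adjusted p = 0.0117). NRT2.1 also fell (edgeR adjusted p = 2.81e-06), with the 1 h level 43.0-fold that at 2 h by counts (95% interval 11.6 to 360). The AMT1;3 call was lost without RB 1 h library b (adjusted p = 0.0509), without RB 2 h library c (0.0696) and without both libraries that stood apart (-1.35, adjusted p = 0.103). The 5 genes that did not pass were NRT1.1 (-0.32, SE 0.33), NAR2.1 (-0.52, SE 0.23), AMT1;1 (-0.55, SE 0.23), AMT1;2 (0.10, SE 0.27) and NIR1 (0.31, SE 0.17).

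Between 3 h and 2 h, 0 of the 9 genes passed edgeR's test, against 0.222% of all genes (0.0607% higher, 0.162% lower), and DESeq2 also called 0. At an unadjusted p under 0.05 there was 1, NIA1, which had 704 ± 39.3 CPM at 3 h and 458 ± 116 CPM at 2 h (log2 fold change 0.62, SE 0.26, edgeR adjusted p = 0.482). Its 3 h libraries all lay above its 2 h libraries, which 13.3% of all tested genes showed in either direction. NRT2.1 had 3 counts at 3 h and 2 at 2 h, and the other 7 genes overlapped, with log2 fold changes from -0.15 (AMT1;2, SE 0.27) to 0.06 (NIA2, SE 0.18).

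Between 3 h and 1 h, 5 of 9 were called, against 17.7% of all genes (9.4% higher, 8.34% lower). NIA1 and NIA2 rose (log2 fold changes 3.31 and 1.46), and NRT2.1, NAR2.1 and AMT1;3 fell. AMT1;3 differed by -1.94 (SE 0.44, edgeR adjusted p = 0.00281), and NRT2.1 had 3 counts at 3 h and 99 at 1 h. NAR2.1 (-0.66, SE 0.23, edgeR adjusted p = 0.0470) lost its call in 12 of 14 alternatives. NIR1 had 207 ± 22.7 CPM at 3 h and 165 ± 20.2 CPM at 1 h, a log2 fold change of 0.33 that did not pass (SE 0.17, edgeR adjusted p = 0.216), although its ranges did not overlap, as for 7 of the 9 genes and 34.3% of all genes. NRT1.1 (-0.46, SE 0.33), AMT1;1 (-0.50, SE 0.22) and AMT1;2 (-0.05, SE 0.27) did not pass either.

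The comparison of RBH with RB at the same 2 h sets the combined label against the dye. Here 2 of the 9 genes were called, a share close to the 16.8% of all genes that were, with 9.82% higher and 6.97% lower. AMT1;3 was higher in RBH, at 7.67 to 18.1 CPM against 2.02 to 4.87 CPM in RB (log2 fold change 1.71, SE 0.46, edgeR adjusted p = 0.0115). NIA1 was lower in RBH, at 162 to 296 CPM against 341 to 572 CPM in RB (-0.88, SE 0.26, edgeR adjusted p = 0.0207). For both the ranges did not overlap, as for 28.5% of all genes. The AMT1;3 call was lost without RB 2 h library c (adjusted p = 0.0618) or RBH library b (0.0732), and the NIA1 call without RB 2 h library b (0.0554), RB 2 h library c (0.123) or RBH library a (0.0932).

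NRT1.1 averaged 67.0 ± 33.2 CPM in RBH and 119 ± 50.3 CPM in RB 2 h, a log2 fold change of -0.88 that did not pass (SE 0.34, edgeR adjusted p = 0.0901). Without RB 2 h library a, which stood apart, it was -1.17 with an adjusted p of 0.0104, and without RBH library b it was -1.42 with an adjusted p of 0.00848. NIA2 differed by -0.01 (SE 0.18), NAR2.1 by -0.07 (SE 0.24), NIR1 by 0.16 (SE 0.17), AMT1;1 by -0.47 (SE 0.24) and AMT1;2 by 0.59 (SE 0.26), none of which passed. AMT1;2 passed without RBH library a (0.85, adjusted p = 0.0242) and was near 0 without RBH library b (-0.02, adjusted p = 0.965). NRT2.1 had 3 counts in RBH and 2 in RB 2 h, so no difference was detectable at this depth. The median over the 6 transport genes was -0.04 and over the 3 reductase genes -0.01, against -0.02 over all tested genes.

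From its values, the authors' deposited table marks genes that pass both an adjusted p of 0.05 and a change of 2-fold. It marks 7 of the 9 genes in RBH against water and 5, 7 and 7 in RB 1 h, 2 h and 3 h against water. It marks 1 in RBH against RB 2 h, 4 in RB 2 h against 1 h, 0 in RB 3 h against 2 h and 4 in RB 3 h against 1 h. All genes so marked in the authors' deposited table were also called here, in the same direction. NIR1 and AMT1;2 carry no mark in any comparison. The largest deposited change of NIR1, 0.93 on the log2 scale at RB 1 h against water, stayed under 2-fold. The share of all genes that carry a mark was not counted here, so these counts have no background beside them.

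Wider lists of nitrogen genes were read from the same fit. Among 8 tested genes of other nitrate transport, 2 rose and 3 fell in RBH against water (of all genes 14.4% rose and 12.6% fell), and 1 rose and 4 fell in RB 2 h against water (12.6% and 12.2%), with list medians of -0.66 and -1.06 against 0.04 over all tested genes in both. At RB 1 h, where 5.39% of all genes were called, edgeR called 0 of the 8, DESeq2 called 1, and 2 had an unadjusted p under 0.05. SLAH3 (AT5G24030), a nitrate-permeable anion channel, had 24.6 ± 9.06 CPM in RB 2 h and 76.8 ± 25.5 CPM in water (log2 fold change -1.56, SE 0.29, edgeR adjusted p = 0.000328). NPF7.3 (AT1G32450, also NRT1.5), which loads nitrate into the xylem, had 16.8 ± 3.34 CPM in RB 2 h and 53.3 ± 2.26 CPM in water (-1.64, SE 0.32, edgeR adjusted p = 0.000436). At RB 1 h NPF7.3 stood at 90.8 ± 35.4 CPM, which did not pass against water (0.79, SE 0.28, edgeR adjusted p = 0.106).

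CLCB (AT3G27170), a vacuolar anion transporter of the CLC family, and SLAH1 (AT1G62280), a relative of SLAH3, also fell at RB 2 h. CLCB had 1.54 ± 0.525 CPM in RB 2 h and 8.54 ± 2.93 CPM in water (edgeR adjusted p = 0.00408), on 8 and 34 counts, and SLAH1 fell by 1.86 on the log2 scale. SLAH2 (AT4G27970), a nitrate channel of the same family, differed between RBH, at 30.4 ± 6.10 CPM, and RB 2 h, at 8.71 ± 1.40 CPM (log2 fold change 1.81, SE 0.29, edgeR adjusted p = 0.000122). SLAH3 went the other way, at 11.6 ± 3.95 CPM in RBH and 24.6 ± 9.06 CPM in RB 2 h (-1.20, SE 0.33, edgeR adjusted p = 0.0132), a call that 3 of 14 alternatives lost.

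Of 3 other ammonium transporter genes only AMT2 (AT2G38290) was tested. AMT2, a plasma membrane ammonium transporter outside the AMT1 group, had 96.6 ± 18.2 CPM in RBH, and over the series 26.3 ± 7.27 CPM in water, 44.5 ± 4.03 at 1 h, 68.8 ± 12.1 at 2 h and 107 ± 12.5 at 3 h. It rose against water in RBH (log2 fold change 1.84, SE 0.23, edgeR adjusted p = 8.64e-07) and in RB at 2 h and 3 h (1.33 and 1.97), so its direction was opposite to that of AMT1;1 and AMT1;3.

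Among 12 tested genes of ammonium assimilation, 3 rose and 3 fell in RBH against water, where 27% of all genes were called, and 3 rose and 4 fell in RB 2 h against water, where 24.8% were, with list medians of 0.06 and -0.16. ASN1 (AT3G47340), an asparagine synthetase known to rise when sugar is short, had 452 ± 114 CPM in RBH, and over the series 11.0 ± 3.85 CPM in water, 33.4 ± 6.28 at 1 h, 220 ± 32.4 at 2 h and 163 ± 44.3 at 3 h. Its log2 fold change against water was 5.35 in RBH (SE 0.30, edgeR adjusted p = 3.12e-12) and 4.30 at RB 2 h, and RBH exceeded RB 2 h by 1.05 (SE 0.22, adjusted p = 0.00208). GDH1 (AT5G18170) and GDH2 (AT5G07440), subunits of the mitochondrial glutamate dehydrogenase, rose at RB 2 h by 2.05 and 2.39 on the log2 scale.

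GLN1;2 (AT1G66200), a cytosolic glutamine synthetase, had 383 ± 94.6 CPM in RBH, and over the series 1377 ± 263 CPM in water, 469 ± 74.8 at 1 h, 195 ± 28.8 at 2 h and 141 ± 8.06 at 3 h. Its log2 fold change was -1.85 in RBH against water and -2.82 at RB 2 h against water (SE 0.21, edgeR adjusted p = 4.21e-10). RBH lay above RB 2 h by 0.98 (SE 0.20, edgeR adjusted p = 0.00143). Against water this gene of the step after nitrite reductase thus fell, as NIR1 did, while ASN1, GDH1 and GDH2 rose. Within the treated groups the match did not hold. GLN1;2 fell from RB 1 h to 2 h and 3 h (log2 fold changes -1.27 and -1.73), where NIR1 did not pass (0.31 and 0.33). ASN1, GDH1 and GDH2 were the only 3 of the 12 tested genes of the list called higher in RB 2 h against water. Other glutamine synthetase genes did not all follow GLN1;2. In RB 2 h against water GLN1;1, GLN1;4 and GLN2 fell by less (log2 fold changes -0.95, -1.25 and -0.69). GLN1;3 did not pass there (-0.10, SE 0.17, edgeR adjusted p = 0.729) or in RBH against water (0.16, edgeR adjusted p = 0.541). GLN1;5 was not tested.

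Of 10 tested genes for electron supply and cofactors of the reductases, 3 rose and 1 fell in RBH against water, against 27% of all genes called, and 1 rose and 1 fell in RB 2 h against water, a share below the 24.8% of all genes. UPM1 (AT5G40850), which makes the precursor of the siroheme that nitrite reductase carries, had 297 ± 53.4 CPM in RBH, 151 ± 5.86 CPM in RB 2 h and 95.3 ± 8.83 CPM in water. It rose in RBH against RB 2 h (0.98, SE 0.18, edgeR adjusted p = 0.000536) and in RB 2 h against water (0.66, SE 0.19, adjusted p = 0.0118), where NIR1 itself fell. MOT1 (AT2G25680), a transporter of molybdate, the metal source of nitrate reductase, had 1.39 ± 0.494 CPM in RB 2 h and 11.8 ± 4.94 CPM in water (-2.93, SE 0.59, edgeR adjusted p = 0.000682), on 8 and 42 counts. CNX1 (AT5G20990), which inserts molybdenum into its cofactor, differed by -0.47 between RB 2 h and water and RFNR1 (AT4G05390), a root ferredoxin reductase, by 1.45, and neither passed. PGD2 (AT3G02360), a dehydrogenase of the pentose phosphate pathway, had 767 ± 107 CPM in RBH and 377 ± 28.9 CPM in RB 2 h (1.03, SE 0.17, edgeR adjusted p = 0.000143). In RBH against RB 2 h, 4 of these 10 genes rose, against 9.82% of all genes, among them CNX1 (0.68, edgeR adjusted p = 0.0337), whose call 8 of 14 alternatives lost.

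Among 21 tested regulators of nitrate responses, 4 rose and 5 fell in RBH against water, against 27% of all genes called, and 1 rose and 4 fell in RB 2 h against water, a share near the 24.8% of all genes, with list medians of 0.05 and 0.14. LBD39 (AT4G37540), a nitrate-induced repressor of nitrogen genes, had 51.0 ± 14.0 CPM in RB 2 h and 113 ± 12.5 CPM in water (-1.15, SE 0.23, edgeR adjusted p = 0.000489). HRS1 (AT1G13300) and HHO1 (AT3G25790), related repressors, fell at RB 2 h by 0.81 and 0.94 on the log2 scale (edgeR adjusted p = 0.0111 and 0.0241). These calls were lost in 2 and 3 of 14 alternatives, both of them without water library c. Their relative HHO3 (AT1G25550) rose by 1.36. Between RBH and RB 2 h, CEPD1 (AT1G06830), a glutaredoxin that signals nitrogen demand from shoot to root, had 16.8 ± 3.10 CPM in RBH and 1.74 ± 1.12 CPM in RB 2 h (3.41, SE 0.50, edgeR adjusted p = 4.76e-05), on 128 and 8 counts. TGA1 (AT5G65210), a nitrate-responsive transcription factor, had 33.3 ± 3.83 CPM in RBH and 80.2 ± 23.0 CPM in RB 2 h (-1.23, SE 0.23, edgeR adjusted p = 0.000708). In that comparison 1 of the 21 regulators rose and 4 fell, where 16.8% of all genes were called.

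**Figure D4:**
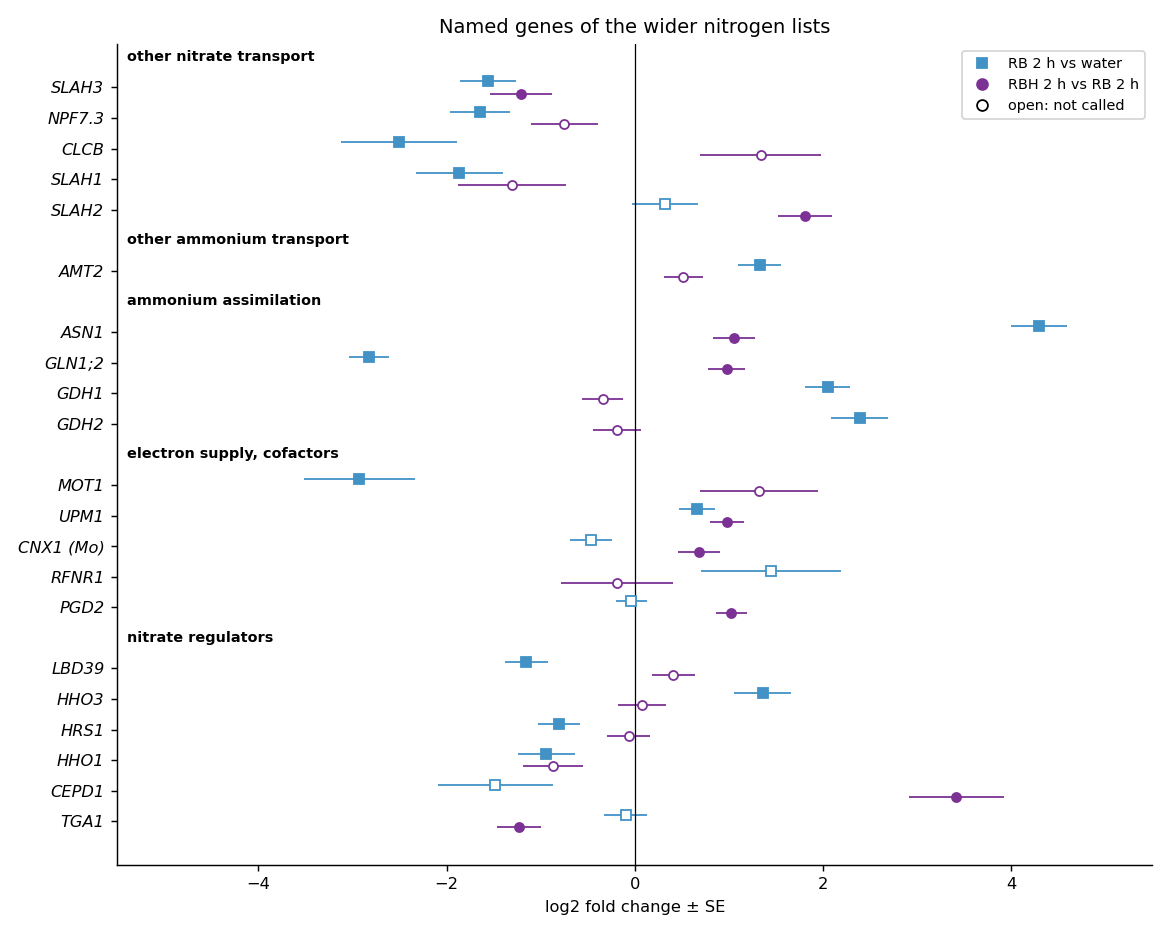
Log2 fold change (points, with SE as whiskers) of the genes with the smallest p named from the 5 wider nitrogen lists. Squares are RB 2 h against water and circles RBH 2 h against RB 2 h, and open symbols did not pass the test. ASN1 lies farthest right against water, at 4.30, GLN1;2 and MOT1 farthest left, at -2.82 and -2.93, and CEPD1 farthest right between RBH and RB 2 h, at 3.41.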

How the data were processed

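Root RNA was read with MARS-seq, which counts transcripts near their 3′ ends, on an Illumina NextSeq, per the labels' protocols. Per the submitters' processing notes, tools were STAR 2.4.2a, HTSeq, DESeq2, bcl2fastq and cutadapt. Their settings, the build, the annotation and any collapse of molecular identifiers were not given in the sources used here. Intervals cover counting error only, and they treat each count as a separate molecule. If copies of a molecule were not collapsed, the intervals are too narrow. In a single file, the deposited table holds whole-number counts per gene and library; every gene in it has at least 6 counts in some library. Beside these, the authors' deposited table holds a log2 fold change per comparison (first-named over second-named group), adjusted p-values and a yes or no mark (unit: other). A further 30 columns of values per library were not used. Of 14391 loci, 14356 matched the annotation TAIR10.1, used for names only, and 35 did not.

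The analysis used edgeR 4.0.16 (R 4.3.3) on the counts as deposited: filterByExpr (9891 genes kept, 4500 set aside), TMM scaling, all 15 libraries in 1 quasi-likelihood fit with a coefficient per group (10 residual degrees of freedom, biological coefficient of variation 20.6%), two-sided tests, Benjamini-Hochberg adjustment over all 9891 genes, and calls under 0.05. The SE is the size of the log2 fold change divided by the root of its F statistic. CPM use TMM-scaled totals. Groups with 1 to 3 counts are given by count ratios with 95% exact intervals. The fit was tested on simulated counts. Replicate pairs differed by a chi-square per degree of freedom of 3.42 to 12.4, so none was counted as 1 sample.

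The genes and lists were chosen with earlier results of these data known. All 9 genes in the table were tested in all 8 comparisons. From each wider list the text names the up to 4 tested genes with the smallest p in RB 2 h against water and the up to 2 in RBH against RB 2 h. The other glutamine synthetase genes are named beside GLN1;2. Comparisons with water share the same 3 water libraries. Alternatives were RLE and upper-quartile scaling, no filter, a minimum of 10 counts in 3 libraries, a replicate block, only the groups compared, leaving out each library, leaving out both libraries apart, DESeq2 1.42.0, and an added 2-fold limit.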

Additional observations from a re-analysis of the deposited data

How the results depend on the processing

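For single genes, 953 of 1005 alternative values stayed on their side of the threshold, 44 lost the call, 8 gained one, and none of the 1005 turned round a called direction. Values that did not pass could change sign, as did AMT1;2 in RBH against water (-0.33 to 0.50) and NRT2.1 in RBH against RB 2 h (-0.61 to 0.78). The number of genes called in RB 1 h against water (7) was 4 to 6 with 1 library left out, with 4 reached without water library c, and 5 to 8 otherwise. In RBH against RB 2 h (2 called) it was 0 to 3 with 1 library left out, with 0 reached without RB 2 h library c and 1 without RB 2 h library b, and 1 with the added 2-fold limit. The cause was not tested; libraries left out also leave fewer samples. The other counts stayed within 1.5 times.

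Replicate letters are shared between groups, but same-letter libraries did not deviate together (correlations -0.229 to 0.271, 4 of 24 over 0.1). With the replicate block, 3 calls were lost, NIA2 in RB 1 h against water (edgeR adjusted p = 0.0537), NIR1 in RBH against water (0.0656) and NAR2.1 in RB 3 h against RB 1 h (0.0755). The paired counts were thus 6, 7 and 4, where 417, 2456 and 1545 of all 9891 genes were called. The other 5 counts did not change.

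Over all genes, 533 calls in RB 1 h against water became 1104 without both libraries apart and 296 to 348 without water library c or a or without RB 1 h library a or c. In RBH against RB 2 h 1660 became 1067 with only those groups fitted and 1077 without RBH library c, and in RB 2 h against 1 h 968 became 577 and, without RB 1 h library a or RB 2 h library c, 541 and 612. In RB 3 h against 1 h 1755 became 1140 without RB 3 h library a. The 22 calls of RB 3 h against 2 h ranged from 0 without RB 2 h library b or RB 3 h library a or b to 99 with DESeq2, with 4 without RB 3 h library c, 9 without RB 2 h library a, 46 without RB 2 h library c, 9 under the block, 34 with the count minimum and 42 without a filter. Upper-quartile scaling moved the median of all genes to -0.13 in RBH against RB 2 h and its split from 971 higher and 689 lower to 799 and 925. Against water in RBH it moved the split from 1426 and 1245 to 1210 and 1628. Low counts limit NRT2.1 in RBH, RB 2 h and RB 3 h (2 or 3 a group), MOT1, CLCB and CEPD1 in RB 2 h (8 each) and AMT1;3 in RB 2 h and 3 h (20 and 27).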
